A study of Capra hircus with 10 samples.

Results

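The 50 genes described here drive or mark the cell cycle and DNA replication in the goat ovary. They were chosen as a list of gene symbols by their known roles, with no threshold on any measured value. Earlier results of these data were known when the list was made, so shares among the 50 genes are descriptions only. Among the 20587 gene symbols of the protein-coding transcripts in the expression table, 50 of the 50 were found. The study sequenced RNA from whole ovaries of Anhui white goats, 5 of them luteal phase and 5 follicular phase ovaries of the estrous cycle. The ovaries came from a slaughterhouse with no treatment named, 1 library was made for each ovary, and neither the age of the goats nor whether any ovaries came from the same goat is given in the sources used here. The spread between ovaries of a phase may therefore not be a spread between animals alone. A whole ovary holds follicles, stroma, vessels and, in the luteal phase, the corpus luteum, so each value is an average over all of these cells.

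A cell copies its DNA in the S phase and divides in mitosis. In the G1 phase D-type cyclins with CDK4 and CDK6, and then E-type cyclins with CDK2, release E2F transcription factors from inhibition, while the CIP/KIP inhibitors hold these kinases back. CDC6 and CDT1 load the MCM2 to MCM7 helicase ring onto DNA, CDC45 and the GINS complex switch it on, and PCNA with its loader RFC keeps the DNA polymerases on the template. CDK1 with cyclins A and B starts mitosis, and Aurora and Polo kinases with the spindle checkpoint carry it through. In the ovary the granulosa cells of growing follicles are known for rapid division, and after ovulation they leave the cell cycle as they become luteal cells, while the vessels of the young corpus luteum grow.

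Values are FPKM, which count sequenced fragments relative to transcript length and to the size of the library, summed over the transcripts of a gene symbol. Limma fitted the difference, luteal phase less follicular phase, in log2(FPKM + 0.1) for the 15359 genes that reached an FPKM of 0.1 in 5 or more ovaries, and a gene was called at a Benjamini-Hochberg adjusted p under 0.05. All 50 genes passed this filter. Values for single ovaries are given in the order of replicates 1 to 5 and pairs of values with the luteal phase first, and ± marks the SD over the 5 ovaries of a phase. The table holds no read counts, so the depth behind each value is unknown, and the FPKM of an ovary added up to 452508 to 503276 in luteal phase and 492324 to 540124 in follicular phase ovaries. The phase labels matched the corpus luteum markers, since 11 of the 11 measured markers were called higher in the luteal phase, against 15.9% of all tested genes. Their summed level ran from 12202 to 15539 FPKM there against 429 to 629 in the follicular phase.

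Most of the 50 genes were lower in the luteal phase ovaries. The test called 26 of them lower (52.0%) and 2 higher, against 27.8% lower and 15.9% higher (43.7% in either direction) among all genes tested. The 2 higher genes were MCM10 and CCND3. The remaining 22 were not called, and 47 of the 50 estimates lay below 0, against 62.0% of all tested genes. The median log2 fold change of the 50 genes was -0.48, beside -0.14 for all tested genes. An unadjusted p under 0.05 was found for 34 of the 50 (68.0%), against 52.2% of all tested genes. The values of the phases did not overlap for 9 genes that were lower in the luteal phase (18.0%), close to the 17.2% of all tested genes, and for MCM10 alone among the genes that were higher, against 11.2% of all tested genes. In whole tissue, fewer cells of a type and less of an RNA in each cell cannot be told apart.

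The number of lower calls rested on the scaling and on single ovaries, whereas the scaling moved the fold changes less. The median log2 fold change of the 50 genes was -0.40 both with a common median and on the TPM scale, beside -0.05 for all genes under each, and 46 and 45 of the 50 estimates lay below 0. The number of lower calls was 16 (32.0%, against 19.9% of all genes) after each ovary was shifted to a common median, 15 (30.0%, against 16.7%) on the TPM scale, 15 (30.0%, against 22.7%) without follicular replicate 1 and 16 (32.0%, against 21.9%) without luteal replicate 4. Without both follicular replicate 1 and luteal replicate 3, an alternative chosen after seeing the data, 12 genes were called lower (24.0%), near the 21.6% of all genes. Of all called genes, 36.3% were higher in the luteal phase, and this share was 48.8% after the shift to a common median and 52.1% on the TPM scale. The 2 higher calls were made under each of these settings.

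**Figure D1:**
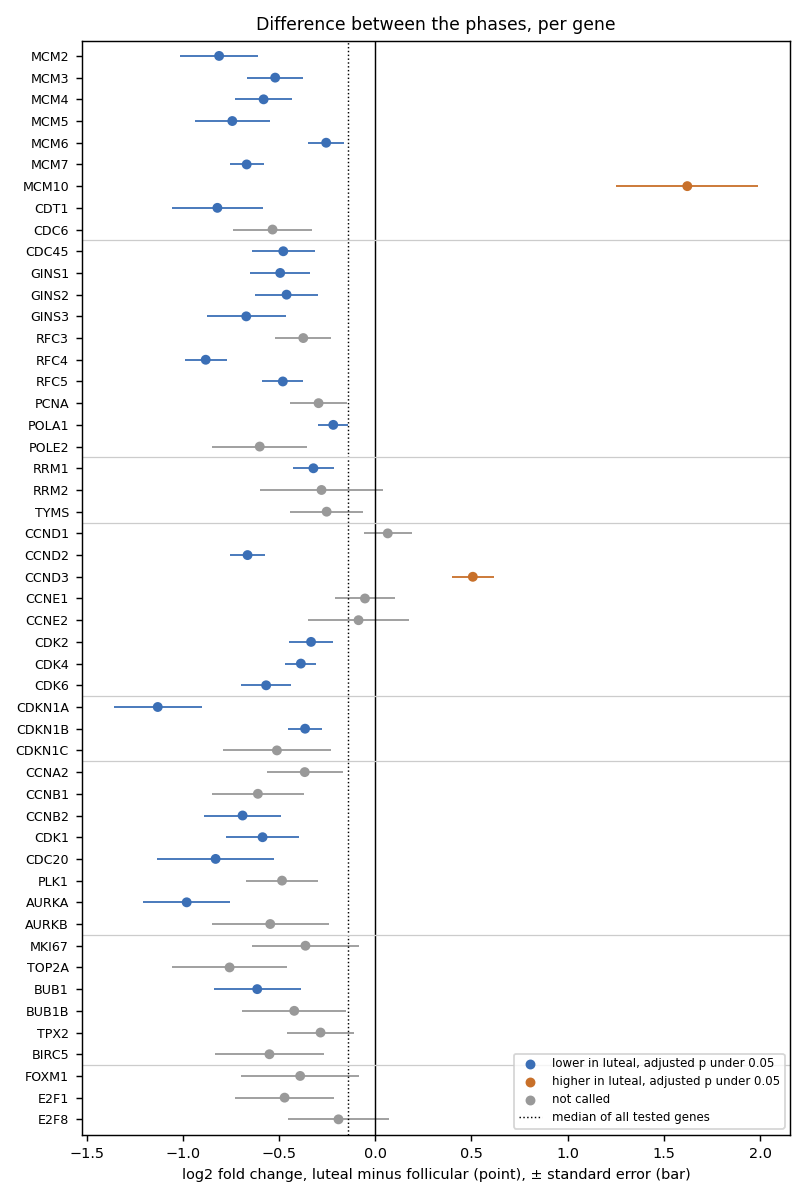
Log2 fold change of each of the 50 genes, luteal minus follicular on log2(FPKM + 0.1), with its standard error from limma (bars), ordered by role; the colour gives the call at an adjusted p under 0.05 and the dotted line the median of all tested genes. The plot shows 26 genes called lower, with MCM10 and CCND3 alone called higher.

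Cell type markers also differed between the phases, and their part in these differences was not tested. Among all tested genes 27.8% were called lower and 15.9% higher in the luteal phase (43.7% in either direction). Of 14 granulosa cell markers, 8 were called lower and 1 higher in the luteal phase, and their summed level ran from 477 to 1261 FPKM in luteal and from 735 to 2062 in follicular phase ovaries. Of 10 endothelial markers, 9 were called higher, with summed levels from 277 to 358 FPKM against 158 to 194. Of 9 measured oocyte markers, 6 were called lower, with summed levels from 9.08 to 21.0 FPKM against 18.4 to 51.6, and of 6 smooth muscle markers 6 were called lower, with 545 to 977 FPKM against 1192 to 1496. Of 10 theca and stroma markers, 3 were called lower and 4 higher, with 4978 to 5863 FPKM against 1992 to 2651, but STAR, which is also on the corpus luteum list, held 2081 to 3245 of this sum in the luteal and 12.1 to 25.7 in the follicular phase. Without STAR the theca and stroma sums overlapped, at 2028 to 3582 against 1974 to 2639 FPKM. Leukocyte markers gave 1 call in 9, higher in the luteal phase, with summed levels from 118 to 147 FPKM against 63.2 to 170. No measured marker of these lists was listed at 0 in all 10 ovaries.

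**Figure D2:**
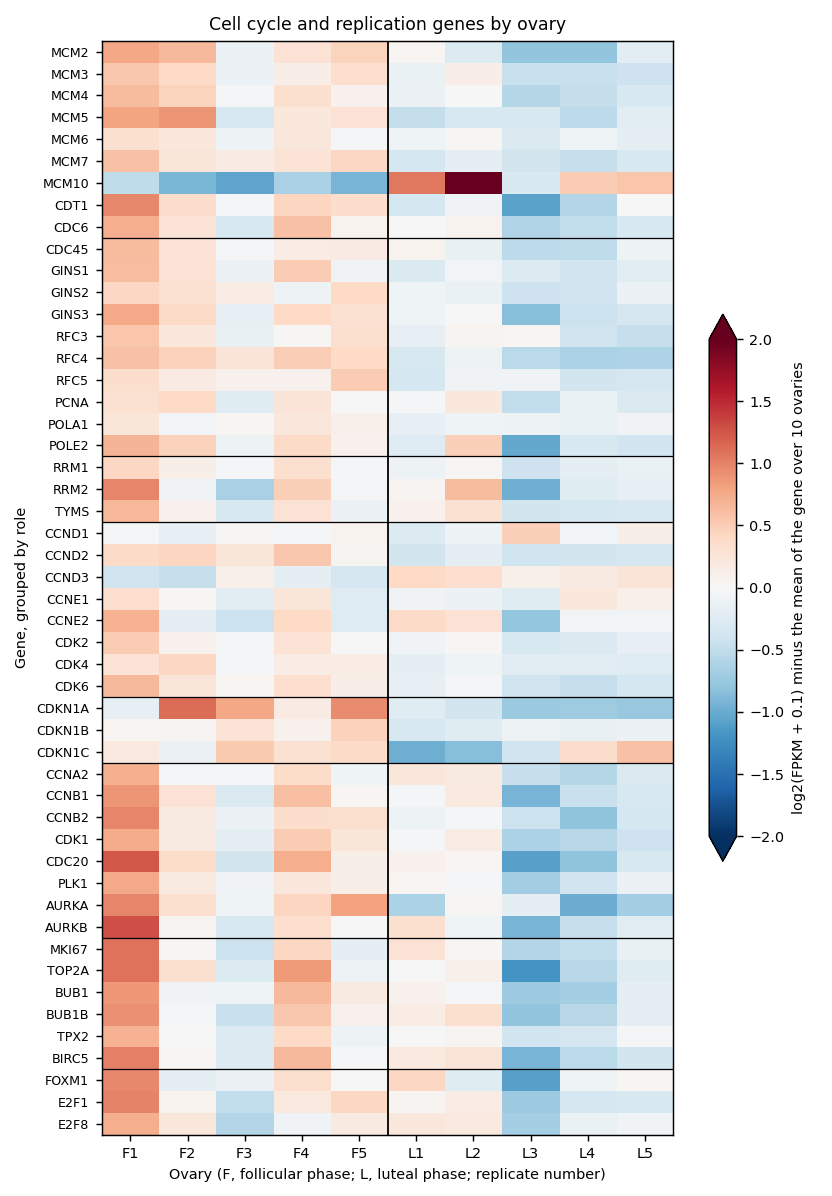
Each row is a gene and each column an ovary (F, follicular phase; L, luteal phase), and the colour is log2(FPKM + 0.1) minus the mean of the gene over the 10 ovaries, with horizontal lines between the role groups. Follicular replicate 1 holds the highest follicular value of 40 genes, luteal replicate 3 the lowest luteal value of 34, and MCM10 shows the opposite pattern to the genes around it.

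Among the genes of replication licensing, which load the helicase before S phase, 7 of 9 were called lower (77.8%, against 27.8% of all tested genes). Of the other 2, 1 was called higher, against 15.9% of all tested genes, and 1 was not called. MCM2 to MCM7 form the helicase ring, and all 6 of these subunits were lower in the luteal phase. MCM7 stood at 19.4, 21.7, 19.2, 18.0 and 20.0 FPKM in luteal replicates 1 to 5 and at 37.3, 29.3, 27.6, 29.8 and 33.0 in follicular replicates 1 to 5 (log2 fold change -0.67, standard error 0.09, limma adjusted p = 0.000184). Every luteal phase ovary was below every follicular phase ovary for MCM7, and it was the only one of the 6 without overlap. MCM5 was at 9.32, 10.4, 10.6, 9.04 and 11.1 FPKM in the luteal and at 22.7, 24.1, 10.4, 15.1 and 15.9 in the follicular phase (log2 fold change -0.74, standard error 0.20, limma adjusted p = 0.0103). Follicular replicate 3 alone lay in the luteal range for MCM5, whereas follicular replicates 1 and 2 were far above it. MCM2, the subunit with the lowest level, was at 5.73, 4.62, 3.18, 3.18 and 4.80 against 9.61, 8.77, 5.15, 6.83 and 7.61 FPKM (log2 fold change -0.81, standard error 0.20, limma adjusted p = 0.00785). The luteal ranges of MCM3 and MCM4 overlapped the follicular ranges as well, with log2 fold changes of -0.52 (standard error 0.15, limma adjusted p = 0.0140) and -0.58 (standard error 0.15, limma adjusted p = 0.00887). MCM6 had the smallest change of the 6 subunits, with a log2 fold change of -0.26 (limma adjusted p = 0.0480), and its call was lost when any 1 of 7 ovaries was omitted, those other than follicular replicates 3 and 5 and luteal replicate 2 (limma adjusted p 0.0658 to 0.114). The MCM6 call was also lost with a common median (limma adjusted p = 0.220), on the TPM scale (0.197), without the variance trend (0.070), with the most abundant transcript (0.0670) and with no filter (0.0564).

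Added up, MCM2 to MCM7 held 76.3 ± 7.15 against 113 ± 17.9 FPKM (SD, n = 5). MCM2 was the lowest of the 6 in 10 of 10 ovaries, and MCM6 and MCM7 were the upper pair in each ovary. MCM7 was above MCM6 in all 5 follicular phase ovaries and in luteal replicate 3, and MCM6 was above MCM7 in the other 4 luteal phase ovaries. CDT1, which places the ring on DNA, was at 1.34, 1.65, 0.767, 1.12 and 1.74 FPKM in the luteal and 3.45, 2.23, 1.67, 2.37 and 2.22 in the follicular phase (log2 fold change -0.82, standard error 0.23, limma adjusted p = 0.0156). Luteal replicate 5 alone exceeded the lowest follicular value of CDT1. CDC6, the partner of CDT1 in loading, was at 2.73 ± 0.566 against 4.06 ± 1.15 FPKM and was not called (log2 fold change -0.53, standard error 0.21, limma adjusted p = 0.0561), but it was called without follicular replicate 3 or luteal replicate 2 (limma adjusted p 0.0169 to 0.0447).

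MCM10 went the other way. MCM10 is not a subunit of the ring but a separate factor that helps the helicase start to unwind DNA. It stood at 20.4, 47.5, 7.90, 14.0 and 14.4 FPKM in luteal replicates 1 to 5 and at 6.87, 5.15, 4.67, 6.25 and 5.11 in follicular replicates 1 to 5 (log2 fold change 1.62, standard error 0.37, limma adjusted p = 0.00473). The lowest luteal value lay above the highest follicular value, and luteal replicate 2 was far above every other ovary. The ratio of the phase means was 3.71, and the call was kept in each of 20 alternative fits. Among the luteal phase ovaries the spread was wide, from 7.90 to 47.5 FPKM, whereas the follicular phase ovaries stayed between 4.67 and 6.87.

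The table lists 2 transcripts of MCM10, and 1 of them carried the difference. XM_013968513.2 was at 18.2, 44.8, 7.19, 11.8 and 11.7 FPKM in the luteal and 4.01, 3.00, 1.59, 3.78 and 2.24 in the follicular phase (log2 fold change 2.41, standard error 0.45, limma adjusted p = 0.00506 over 32842 transcripts). XM_018057119.1 was at 2.17, 2.65, 0.712, 2.18 and 2.71 against 2.85, 2.16, 3.09, 2.46 and 2.86 FPKM, with overlapping ranges and no call (log2 fold change -0.46, limma adjusted p = 0.364). The first transcript made up 81.2% to 94.4% of the FPKM of the gene in the luteal phase ovaries and 34.0% to 60.6% in the follicular phase ovaries. How the reads of a gene were divided among its transcripts is an estimate made by the authors' software, and the positions of these transcripts were not analysed here. In goat assembly ARS1.2 as annotated by RefSeq, which may not be the build of the table, the protein-coding neighbours of MCM10 are OPTN and UCMA, which were looked up after the values of MCM10 had been seen. OPTN, an autophagy receptor, was also higher in the luteal phase, at 36.3, 42.6, 42.0, 48.7 and 51.2 FPKM against 24.2, 15.9, 22.3, 20.9 and 22.2 (log2 fold change 1.07, standard error 0.12, limma adjusted p = 7.66e-05), and the ovary highest in MCM10, luteal replicate 2, was not the highest in OPTN. UCMA, a cartilage matrix protein, was at 0.205 FPKM or below in all 10 ovaries and did not pass the filter.

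**Figure D3:**
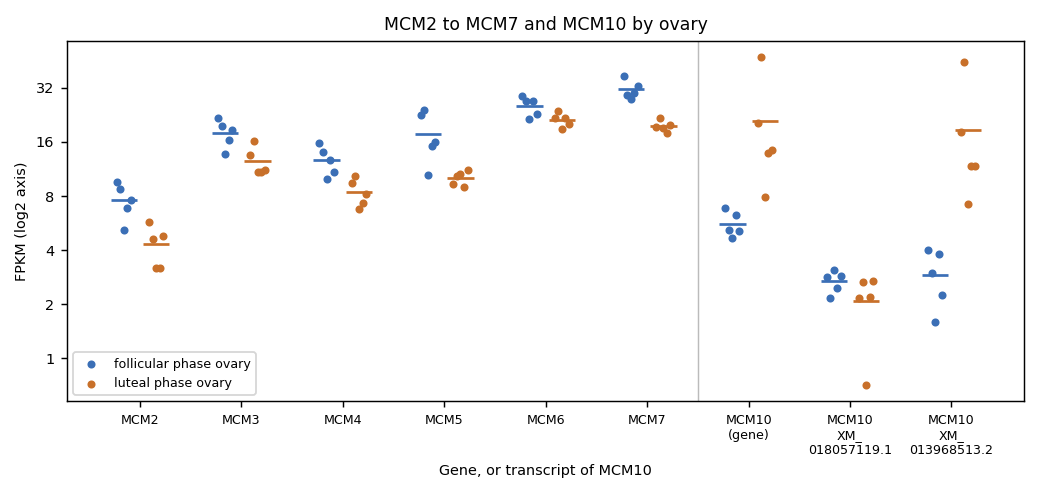
FPKM on a log2 axis of the 6 helicase ring genes, of MCM10 and of its 2 transcripts, with a point per ovary and a line at the mean of each phase. MCM2 to MCM7 lie lower in the luteal phase, whereas MCM10 and its transcript XM_013968513.2 lie higher, with luteal replicate 2 at 47.5 and 44.8.

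Of the 10 genes that act at the replication fork, 7 were called lower in the luteal phase (70.0%, against 27.8% of all tested genes) and 3 were not called. All 10 estimates were below 0, against 62.0% of all tested genes. RFC4 and RFC5 are subunits of the clamp loader, which opens the PCNA ring and places it on DNA. RFC4 was at 11.9, 13.8, 10.3, 9.58 and 9.72 FPKM in the luteal and 22.4, 20.6, 17.9, 20.9 and 19.7 in the follicular phase (log2 fold change -0.88, standard error 0.11, limma adjusted p = 0.000120), with no overlap between the phases. RFC5 was at 10.4, 12.6, 12.7, 10.3 and 10.4 against 17.0, 14.9, 14.0, 14.1 and 19.0 FPKM (log2 fold change -0.48, standard error 0.11, limma adjusted p = 0.00418), again without overlap. RFC3, a further subunit, was at 17.0, 19.8, 19.5, 14.4 and 13.8 against 27.9, 22.0, 17.1, 19.3 and 23.8 FPKM and was not called (log2 fold change -0.37, standard error 0.14, limma adjusted p = 0.0547), with luteal replicates 2 and 3 within the follicular range. It was called without follicular replicate 3, luteal replicate 2 or luteal replicate 3 (limma adjusted p 0.0256 to 0.0420). PCNA, the sliding clamp, had the highest mean FPKM of the 50 genes, at 42.0, 50.2, 30.8, 39.3 and 35.3 against 53.6, 57.2, 36.4, 51.6 and 43.5 FPKM, and its ranges overlapped (log2 fold change -0.29, standard error 0.15, limma adjusted p = 0.124). Without follicular replicate 3 or luteal replicate 2 PCNA was called (limma adjusted p 0.0426 to 0.0495).

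CDC45 and the GINS subunits complete the active helicase. GINS3 was at 1.41, 1.52, 0.787, 1.09 and 1.17 against 2.60, 1.98, 1.34, 2.02 and 1.87 FPKM (log2 fold change -0.67, standard error 0.20, limma adjusted p = 0.0209), and its call was lost without follicular replicate 1 (limma adjusted p = 0.0527). GINS1, GINS2 and CDC45 had log2 fold changes of -0.49, -0.46 and -0.48 (limma adjusted p = 0.0242, 0.0378 and 0.0348). These 3 calls were not firm. GINS1 was lost without follicular replicates 1 or 4 or luteal replicate 4, with limma adjusted p from 0.0580 to 0.0587. CDC45 was lost when any 1 of 5 ovaries was omitted, follicular replicates 1, 2 and 5 and luteal replicates 3 and 4, with limma adjusted p up to 0.0855. GINS2 was lost for any 1 of 8 ovaries, those other than follicular replicate 4 and luteal replicate 1, with limma adjusted p up to 0.0865. All 3 were lost as well with a common median, quantile normalization and TPM, with limma adjusted p up to 0.0725 for GINS1, 0.116 for CDC45 and 0.127 for GINS2, and CDC45 and GINS2 also with no filter and with the most abundant transcript. POLA1, the catalytic subunit of the polymerase that starts each new strand, was at 7.78, 8.24, 8.16, 7.91 and 8.31 against 10.3, 8.37, 8.98, 10.2 and 9.31 FPKM (log2 fold change -0.22, standard error 0.08, limma adjusted p = 0.0427). The POLA1 values did not overlap, but the change was small and the call was lost when any 1 of 9 ovaries was omitted, those other than follicular replicate 2 (limma adjusted p 0.0554 to 0.102). It was lost further with each other scaling, a common median (limma adjusted p = 0.194), quantile normalization (0.113) and TPM (0.353), and with the most abundant transcript (0.0618). POLE2, a subunit of the leading strand polymerase, was at 2.17 ± 0.863 against 3.22 ± 0.703 FPKM and was called only without luteal replicate 2 of the fits with 1 ovary omitted (log2 fold change -0.60, limma adjusted p = 0.0693, and 0.0133 without that ovary).

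The 3 genes that supply deoxynucleotides gave 1 call, lower in the luteal phase (33.3%, against 27.8% of all tested genes). RRM1, the large subunit of ribonucleotide reductase, was at 28.1, 30.4, 22.6, 26.6 and 27.3 against 40.2, 32.5, 29.6, 37.6 and 29.6 FPKM (log2 fold change -0.32, standard error 0.11, limma adjusted p = 0.0302). Its call was lost without follicular replicates 1 or 4 or luteal replicates 3, 4 or 5 (limma adjusted p 0.0521 to 0.0720), and also with a common median (0.114) and on the TPM scale (0.126). RRM2, the small subunit of the enzyme, whose level is known to peak in S phase, ranged from 5.67 to 17.4 FPKM in luteal and from 7.13 to 22.2 in follicular phase ovaries (log2 fold change -0.28, standard error 0.32, limma adjusted p = 0.50). TYMS, which makes thymidylate, ranged from 12.5 to 19.9 and from 13.0 to 25.6 FPKM (log2 fold change -0.25, standard error 0.19, limma adjusted p = 0.296). For both genes the spread within a phase was larger than the difference between the phases.

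The G1 cyclins and their kinases were divided, with 4 of 8 called lower, 1 called higher and 3 not called. Among all tested genes 27.8% were called lower and 15.9% higher. The D-type cyclins, which answer to growth factors, moved in different directions. CCND2, known as the D-type cyclin of granulosa cells, was at 29.5, 33.2, 28.6, 29.3 and 30.1 FPKM in luteal replicates 1 to 5 and at 49.4, 51.4, 45.0, 55.3 and 39.3 in follicular replicates 1 to 5 (log2 fold change -0.66, standard error 0.09, limma adjusted p = 0.000227). All luteal values of CCND2 were below all follicular values. CCND3 was at 27.6, 26.2, 22.3, 23.6 and 24.9 in the luteal and 15.8, 15.1, 22.3, 18.4 and 16.5 FPKM in the follicular phase (log2 fold change 0.51, standard error 0.11, limma adjusted p = 0.00324). Every luteal value of CCND3 was above the follicular values, except that luteal replicate 3 lay just under follicular replicate 3. CCND1 was at 9.0, 10.2, 15.2, 10.6 and 11.8 against 10.6, 9.70, 11.1, 10.6 and 11.4 FPKM and was not called (log2 fold change 0.06, standard error 0.12, limma adjusted p = 0.693).

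As a share of the 3 D-type cyclins within an ovary, CCND2 held 45.4 ± 1.62% against 62.8 ± 4.55%, and CCND3 held 37.5 ± 2.86% against 23.1 ± 3.47%, each over 5 ovaries. Both differences had a two-sided exact permutation p of 0.00794, the smallest that 5 ovaries against 5 allow, and a Benjamini-Hochberg adjusted p of 0.0357 over the 9 shares compared. With any 1 ovary other than follicular replicate 1 omitted, both adjusted p-values were 0.0714, which is what the smallest p of 4 ovaries against 5 (0.0159) gives for 2 of the 9 shares, so these omissions could not pass unless a further share did and do not bear on the stability of the difference. A share does not depend on how the ovaries are scaled to each other. In these shares the phases did not overlap, since CCND2 held 43.4% to 47.6% in the luteal and 57.4% to 67.4% in the follicular phase. The share of CCND1 was 17.1 ± 3.63% against 14.1 ± 1.77% (exact permutation p = 0.103, adjusted 0.186). The sum of the 3 cyclins was 66.4 ± 2.20 FPKM in the luteal and 76.4 ± 6.14 in the follicular phase. Of the 2 CCND3 transcripts in the table, XM_018038733.1 was called higher (log2 fold change 1.13, standard error 0.32, limma adjusted p = 0.0337) and XM_005696305.3 was not called (log2 fold change 0.15, limma adjusted p = 0.773). Over all ovaries the latter was the more abundant by a narrow margin, with a mean of 10.66 against 10.61 FPKM, but in the luteal phase alone the former was, at 14.2 against 10.7 FPKM. With only the transcript more abundant over all ovaries in place of the sum, CCND3 itself was not called (limma adjusted p = 0.722), and its share and that of CCND2 had adjusted exact permutation p-values of 0.257 and 0.0714.

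CDK4, the more abundant kinase of the D-type cyclins, was at 33.4, 35.4, 32.3, 32.6 and 31.5 FPKM in the luteal and 45.9, 50.3, 37.3, 41.7 and 42.0 in the follicular phase (log2 fold change -0.39, standard error 0.08, limma adjusted p = 0.00292), and CDK6 was at 5.44, 5.92, 4.58, 4.37 and 4.72 against 9.61, 7.22, 6.26, 7.71 and 6.71 (log2 fold change -0.57, standard error 0.13, limma adjusted p = 0.00502). Neither kinase overlapped between the phases. CDK4 made up 86.9 ± 1.04% against 85.3 ± 1.82% of their sum, a share that did not pass the test (exact permutation p = 0.143, adjusted 0.214). CDK6 has 3 transcripts in the table, and with the most abundant alone, XM_018047424.1, its estimate was 0.02 (limma adjusted p = 0.989). This transcript had a mean of 2.36 FPKM over all ovaries, close to the 2.24 of XM_018047425.1, was at 0.094 in follicular replicate 4 and had a standard error of 0.81. The other 2 had log2 fold changes of -0.70 and -0.64 and were not called. CDK2, the kinase of the E-type cyclins, was at 8.06 ± 0.825 against 10.2 ± 1.66 FPKM (log2 fold change -0.33, standard error 0.12, limma adjusted p = 0.0366), and its call was lost without follicular replicates 1 or 4 or luteal replicates 3, 4 or 5 (limma adjusted p 0.0655 to 0.0847), and also with each other scaling (0.0779 to 0.157) and with the most abundant transcript (0.0519). The E-type cyclins gave no call. CCNE1 was at 1.95 ± 0.264 against 2.04 ± 0.400 FPKM (log2 fold change -0.05, standard error 0.16, limma adjusted p = 0.799) and CCNE2 at 3.41 ± 0.979 against 3.67 ± 1.31 FPKM (log2 fold change -0.09, standard error 0.26, limma adjusted p = 0.805), with estimates near 0 whose sign changed with the scaling. CCNE1 held 37.3 ± 7.16% against 36.6 ± 3.93% of the 2 (exact permutation p = 0.881, adjusted 0.881).

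**Figure D4:**
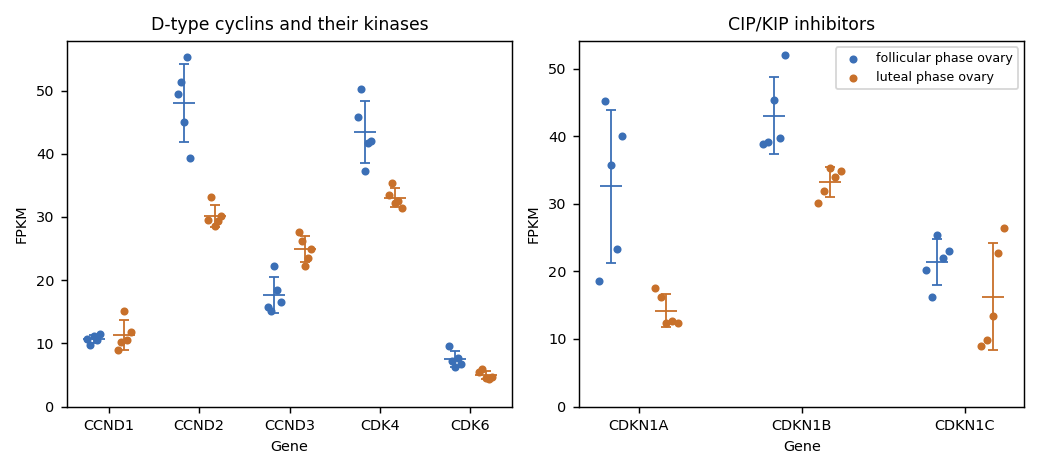
FPKM of the D-type cyclins and their kinases (left) and of the CIP/KIP inhibitors (right), with a point per ovary, and the mean and SD of each phase (n = 5). CCND2, CDK4, CDK6, CDKN1A and CDKN1B show no overlap between the phases, CCND3 is higher in the luteal phase, and the luteal values of CDKN1C run from 8.97 to 26.5.

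Of the CIP/KIP inhibitors, which stop the cyclin-dependent kinases, 2 of 3 were called lower in the luteal phase (66.7%, against 27.8% of all tested genes). CDKN1A, the p21 inhibitor and a target of p53, was at 17.6, 16.2, 12.4, 12.7 and 12.3 FPKM in luteal replicates 1 to 5 and at 18.6, 45.3, 35.7, 23.3 and 40.1 in follicular replicates 1 to 5 (log2 fold change -1.13, standard error 0.23, limma adjusted p = 0.00245). This was the largest fall among the 50 genes, and the phases did not overlap, although follicular replicate 1 was close to the luteal range. CDKN1B, the p27 inhibitor, known to rise when granulosa cells luteinize in rodents, was at 30.1, 31.9, 35.3, 34.0 and 34.9 against 38.8, 39.2, 45.4, 39.8 and 52.0 FPKM (log2 fold change -0.36, standard error 0.09, limma adjusted p = 0.00763), also without overlap, and its call was lost on the TPM scale (limma adjusted p = 0.0678). CDKN1C, the imprinted p57 inhibitor, was at 8.97, 9.80, 13.4, 22.7 and 26.5 FPKM in the luteal and 20.2, 16.3, 25.5, 21.9 and 23.0 in the follicular phase and was not called (log2 fold change -0.51, standard error 0.28, limma adjusted p = 0.159). Luteal replicates 1, 2 and 3 were below every follicular phase ovary for CDKN1C, whereas luteal replicates 4 and 5 were at the follicular level. Without luteal replicate 5 CDKN1C was called (limma adjusted p = 0.0413).

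The 3 inhibitors summed to 63.7 ± 7.44 against 97.0 ± 15.4 FPKM (SD, n = 5). Within an ovary CDKN1A held 22.8 ± 6.30% against 32.9 ± 8.06% of this sum (exact permutation p = 0.0635, adjusted 0.143), CDKN1B held 52.5 ± 4.29% against 44.7 ± 4.22% (p = 0.0317, adjusted 0.0952) and CDKN1C held 24.7 ± 9.18% against 22.4 ± 4.23% (p = 0.635, adjusted 0.759). None of these 3 shares passed the test after adjustment. Without follicular replicate 1 the share of CDKN1B did pass, with a difference of 9.13 percentage points (adjusted exact permutation p = 0.0476).

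Of the 8 genes that drive G2 and mitosis, 4 were called lower in the luteal phase, against 27.8% of all tested genes. All 8 estimates were below 0, against 62.0% of all tested genes. AURKA, the Aurora kinase of the spindle poles, was at 5.56, 8.80, 7.64, 4.30 and 5.37 FPKM in luteal replicates 1 to 5 and at 17.1, 10.8, 8.18, 11.6 and 15.2 in follicular replicates 1 to 5 (log2 fold change -0.98, standard error 0.23, limma adjusted p = 0.00529). Only luteal replicate 2 exceeded the lowest follicular value of AURKA, and the call was kept in each of the 20 alternative fits. CCNB2, a B-type cyclin, was at 6.32, 6.67, 5.01, 3.83 and 5.31 against 13.5, 7.74, 6.28, 8.70 and 8.50 FPKM (log2 fold change -0.69, standard error 0.20, limma adjusted p = 0.0168). CDK1, the kinase of the mitotic cyclins, was at 16.6, 18.6, 10.8, 11.4 and 12.6 against 28.1, 19.0, 14.6, 23.9 and 19.8 FPKM (log2 fold change -0.59, standard error 0.19, limma adjusted p = 0.0284), and its call was lost without follicular replicates 1 or 4 or luteal replicates 3, 4 or 5 (limma adjusted p 0.0606 to 0.0697), with a common median (0.0548) and on the TPM scale (0.0622). CDC20, the activator of the anaphase-promoting complex, was at 8.83, 8.48, 3.86, 4.72 and 6.65 against 19.8, 10.7, 6.41, 13.7 and 8.98 FPKM (log2 fold change -0.83, standard error 0.30, limma adjusted p = 0.0453). The CDC20 call was lost when any 1 of 7 ovaries was omitted, those other than follicular replicate 3 and luteal replicates 1 and 2 (limma adjusted p 0.0505 to 0.103), and under 6 other settings, among them each other scaling (0.0590 to 0.0782).

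CCNB1, CCNA2, PLK1 and AURKB were not called. CCNB1 was at 15.0, 17.7, 8.05, 11.3 and 12.2 against 28.4, 18.7, 12.6, 23.3 and 15.8 FPKM (log2 fold change -0.61, standard error 0.24, limma adjusted p = 0.0582) and was called without follicular replicate 3 or luteal replicate 2 (limma adjusted p 0.0250 to 0.0322). It made up 69.8 ± 4.96% against 68.6 ± 3.13% of the 2 B-type cyclins (exact permutation p = 0.675, adjusted 0.759). CCNA2, the cyclin of S phase and early mitosis, was at 11.3 ± 2.93 against 14.5 ± 3.77 FPKM (log2 fold change -0.37, standard error 0.20, limma adjusted p = 0.150). PLK1, the Polo kinase, was at 1.57 ± 0.328 against 2.25 ± 0.547 FPKM (log2 fold change -0.48, standard error 0.19, limma adjusted p = 0.0571) and was called without follicular replicate 3 or luteal replicate 1 (limma adjusted p 0.0461 to 0.0470). AURKB, the Aurora kinase of the chromosomal passenger complex, was at 2.57, 1.92, 1.02, 1.45 and 1.75 against 5.14, 2.11, 1.62, 2.59 and 2.05 FPKM (log2 fold change -0.55, standard error 0.30, limma adjusted p = 0.164), with follicular replicate 1 far above all other ovaries.

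The group with the classical proliferation markers gave 1 call in 6, lower in the luteal phase (16.7%, under the 27.8% of all tested genes). MKI67, which encodes the Ki-67 antigen of dividing cells, was at 2.11, 1.72, 1.10, 1.17 and 1.52 FPKM in the luteal and 3.71, 1.73, 1.23, 2.28 and 1.49 in the follicular phase (log2 fold change -0.36, standard error 0.28, limma adjusted p = 0.310). Follicular replicates 1 and 4 lay above all luteal phase ovaries and luteal replicates 3 and 4 below all follicular phase ovaries, and the other 6 ovaries overlapped. TOP2A, the topoisomerase that untangles chromosomes, was at 33.3, 35.8, 14.6, 22.6 and 28.2 against 71.0, 41.8, 27.7, 60.1 and 31.1 FPKM (log2 fold change -0.76, standard error 0.30, limma adjusted p = 0.0578). TOP2A was called without follicular replicate 3, follicular replicate 5 or luteal replicate 2 (limma adjusted p 0.0312 to 0.0449), and also with quantile normalization (0.0463). BUB1, a kinase of the spindle checkpoint, was called lower at 3.30 ± 0.839 against 5.16 ± 1.62 FPKM (log2 fold change -0.61, standard error 0.23, limma adjusted p = 0.0462), a call lost without follicular replicates 1, 4 or 5 or luteal replicates 3, 4 or 5 (limma adjusted p 0.0613 to 0.109) and under 6 other settings, among them each other scaling and the most abundant transcript (0.0546 to 0.289). BUB1B, a further checkpoint protein, was at 7.33 ± 2.32 against 9.98 ± 3.73 FPKM (log2 fold change -0.42, standard error 0.27, limma adjusted p = 0.224), BIRC5, which encodes survivin, at 5.55 ± 1.91 against 8.24 ± 3.22 FPKM (log2 fold change -0.55, standard error 0.28, limma adjusted p = 0.133), and TPX2, a spindle factor that activates AURKA, at 10.6 ± 1.43 against 13.2 ± 3.77 FPKM (log2 fold change -0.28, standard error 0.17, limma adjusted p = 0.202). With the most abundant of its transcripts alone, the estimate for TPX2 was 1.00 (limma adjusted p = 0.476).

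The 3 transcription factors of the group were low and gave no call, against 43.7% of all tested genes called in either direction. E2F1, an activator of S phase genes, ranged from 1.17 to 2.22 FPKM in the luteal and from 1.40 to 4.07 in the follicular phase (log2 fold change -0.47, standard error 0.26, limma adjusted p = 0.158), and it was called only without follicular replicate 3 among these fits (limma adjusted p = 0.0474). FOXM1, an activator of mitotic genes, ranged from 0.0799 to 0.411 and from 0.235 to 0.646 FPKM (log2 fold change -0.39, standard error 0.31, limma adjusted p = 0.323). E2F8, a repressor of the E2F family, ranged from 0.181 to 0.429 and from 0.203 to 0.650 FPKM (log2 fold change -0.19, standard error 0.26, limma adjusted p = 0.578). FOXM1 and E2F8 had the lowest mean FPKM of the 50 genes, where a pseudocount of 0.1 understates a change.

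The ovaries of a phase differed among themselves in the same direction for most of these genes. Follicular replicate 1 held the highest follicular value of 40 of the 50 genes (80.0%), whereas it was the highest for 22.8% of all tested genes. Follicular replicate 3 held the lowest follicular value of 39 genes (78.0%, against 17.1% of all tested genes). In the luteal phase, replicate 2 was the highest for 28 genes (56.0%, against 20.7%) and replicate 1 for 14, and replicate 3 was the lowest for 34 (68.0%, against 24.5%). The 50 genes were measured in the same 10 libraries, so these counts are not 50 independent observations.

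Expressed as the median log2 deviation from the mean of each gene, the level of the 50 genes was -0.07, 0.02, -0.47, -0.40 and -0.23 in luteal replicates 1 to 5 and 0.67, 0.19, -0.11, 0.32 and 0.09 in follicular replicates 1 to 5. Follicular replicate 3 lay below luteal replicates 1 and 2 on this scale, so the phases overlapped. The G2 and mitotic drivers spread more than the G1 group did, from -0.66 in luteal replicate 3 to 0.93 in follicular replicate 1, against -0.28 to 0.36 in the same ovaries. The CIP/KIP inhibitors ranked the follicular phase ovaries differently, with replicate 1 lowest at 0.04 and replicate 3 highest at 0.52. Over all tested genes the same measure stayed between -0.09 and 0.11. The summed level of the 14 granulosa cell markers was highest in follicular replicate 1, at 2062 FPKM, and among the follicular phase ovaries lowest in replicate 3, at 735. In the luteal phase it was lowest in replicate 3, at 477 FPKM, and highest in replicate 1, at 1261, while replicate 2, the highest for most of the 50 genes, was at 601. GJA1 and INHA, the most abundant of these markers, weigh most in the sum. Within the luteal phase both were highest in replicate 1, at 416 and 355 FPKM. AMH and CDH2 were instead lowest of the luteal phase in replicate 1, at 6.49 and 16.7 FPKM, so the ranking depends on the markers taken. The part of these markers in the differences between ovaries was not tested.

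**Figure D5:**
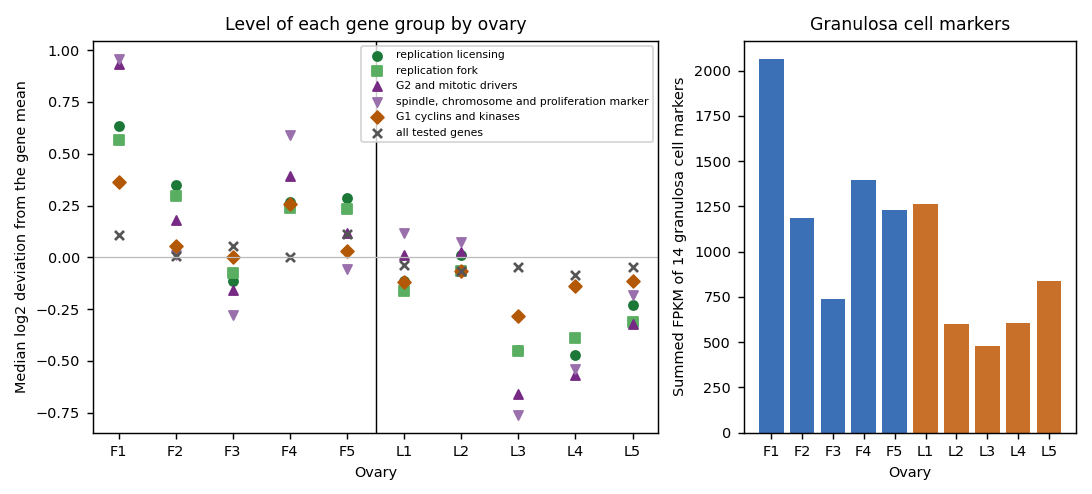
Left, median log2 deviation from the gene mean for 5 of the role groups and for all tested genes in each ovary (F, follicular; L, luteal); right, summed FPKM of 14 granulosa cell markers in the same ovaries. Follicular replicate 1 is highest for each of the 5 groups and for the markers, with 2062 FPKM, and luteal replicate 3 is lowest for the markers, with 477 FPKM, and for 4 of the 5 groups, the licensing genes being lowest in luteal replicate 4.

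Of a list of 144 other cell cycle genes, 141 were in the table and passed the filter. The test called 53 lower in the luteal phase (37.6%) and 2 higher, with a median log2 fold change of -0.38, beside 27.8% lower and a median of -0.14 for all tested genes. In either direction 55 were called (39.0%), fewer than the 43.7% of all tested genes. The lower calls were 29 on the TPM scale (20.6%, against 16.7% of all genes) and 30 without both follicular replicate 1 and luteal replicate 3 (21.3%, against 21.6%). Of 42 other replication genes, 22 were called lower, 0 were called higher at an adjusted p under 0.05 by limma and 25 (59.5%) had an unadjusted p under 0.05 in either direction, against 52.2% of all tested genes. Of 56 other mitosis genes, 18 were called lower and 0 higher, with 27 (48.2%) at an unadjusted p under 0.05, which is under the 52.2% of all tested genes. Of 43 other control genes, 13 were called lower (30.2%, against 27.8% of all tested genes) and 2 higher, with 16 (37.2%) at an unadjusted p under 0.05, against the same 52.2%. The phases did not overlap for 25 of the 141 genes, all lower in the luteal phase (17.7%, against 17.2% of all tested genes).

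The largest changes among the called genes without overlap were those of GAS1, SKP2 and CDCA3. GAS1, a membrane protein that holds fibroblasts in growth arrest, was at 24.6, 70.2, 79.1, 56.3 and 57.0 FPKM in the luteal and 128, 143, 186, 158 and 146 in the follicular phase (log2 fold change -1.50, standard error 0.26, limma adjusted p = 0.00107). SKP2, the ubiquitin ligase subunit that marks p27 for degradation, was at 3.48, 4.27, 3.71, 4.13 and 3.81 against 8.93, 9.70, 5.41, 7.26 and 7.37 FPKM (log2 fold change -0.95, standard error 0.15, limma adjusted p = 0.000467). CDCA3, a trigger of entry into mitosis, was at 5.60, 6.22, 3.33, 5.23 and 5.88 against 16.8, 8.25, 6.35, 9.82 and 7.46 FPKM (log2 fold change -0.82, standard error 0.25, limma adjusted p = 0.0200). The 2 genes called higher were CDKN2B and GADD45B, named after their values were seen. CDKN2B, an inhibitor of CDK4 and CDK6, was at 1.88 ± 0.60 against 1.06 ± 0.558 FPKM (log2 fold change 0.84, standard error 0.31, limma adjusted p = 0.0495), and GADD45B, a stress response gene, at 89.1 ± 12.7 against 70.2 ± 8.89 FPKM (log2 fold change 0.34, standard error 0.12, limma adjusted p = 0.0336), both with overlapping ranges.

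The 50 genes had 81 transcripts in the table, with 1 transcript for 33 genes and 2 to 6 for the other 17. In the fit over all transcripts, an alternative chosen after seeing the data, 71 of the 81 were tested, 17 were called lower and 2 higher, against 9.82% lower and 7.47% higher among all transcripts. The 2 higher ones were the MCM10 and CCND3 transcripts described above. CDK1 had 4 transcripts, of which XM_005699057.3 was called lower, at 0.443, 2.51, 3.84, 4.65 and 5.18 FPKM in the luteal and 11.9, 8.94, 6.90, 14.7 and 8.58 in the follicular phase (log2 fold change -1.89, standard error 0.56, limma adjusted p = 0.0431). The other 3 CDK1 transcripts were not called. Of the 6 TPX2 transcripts, XM_005688363.3 was called lower, at 1.63, 2.40, 1.67, 1.60 and 1.93 against 3.63, 3.17, 4.33, 3.59 and 3.05 FPKM (log2 fold change -0.91, standard error 0.16, limma adjusted p = 0.00383), although TPX2 summed over its transcripts was not called. The most abundant TPX2 transcript, XM_005688362.3, was at 8.59, 8.02, 6.03, 6.54 and 7.35 against 12.4, 8.53, 0.0581, 7.92 and 4.77 FPKM and was not called (log2 fold change 1.00, standard error 1.02, limma adjusted p = 0.550). In follicular replicate 3 this transcript was near 0, whereas follicular replicate 1 had its highest value. Of the other TPX2 transcripts, 3 were not called and 1 did not pass the filter.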

How the data were processed

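RNA from whole ovaries of Anhui white goats was sequenced after ribosomal RNA depletion in strand-specific, paired-end libraries. Reads were aligned (HISAT2) and transcripts assembled (StringTie) by the authors, who deposited FPKM values from Cuffdiff for 50146 transcripts per ovary, and the genome build is not given in the sources used here. FPKM of protein-coding transcripts was summed by gene symbol to 20587 genes. The deposited table of mRNA alone held the same values as the protein-coding part of the table of all transcripts and was not used, nor were long noncoding RNAs. Neighbouring genes and synonyms were taken from RefSeq.

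The phases were compared with limma 3.58.1 in R 4.3.3 (lmFit, eBayes with trend) on log2(FPKM + 0.1), which understates changes of low genes, with Benjamini-Hochberg adjustment over the 15359 genes that reached an FPKM of 0.1 in 5 or more ovaries. The 9 shares within gene families were compared by exact permutation over 252 divisions of the ovaries with scipy 1.17.1. The procedure was tested on simulated data. The ovaries were grouped by the phase given in the labels. The main fit did not pair the same replicate numbers, since the labels do not say whether they belong together. The limma p-values set the difference between the phases against the spread between these ovaries, moderated over all genes. The permutation p-values rank the difference among the divisions of the ovaries. The depth is unknown, since the table holds no read counts.

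The 50 genes, the other cell cycle genes and the marker lists were chosen with earlier results of these data known. All 50 genes are described. Of the other cell cycle genes, the rule named those 3 in each direction with the largest change among called genes whose phases did not overlap. Alternatives were other pseudocounts, filters, scalings, variance models and thresholds, the replicate block, the most abundant transcript, transcripts in place of genes, and the omission of ovaries. Of the 144 other cell cycle genes, CDKN2A, CDCA5 and H2AFZ were not analysed here, and neither were promoter sequences.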

Additional observations from a re-analysis of the deposited data

Results flagged for a closer look

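AURKB stood apart in 1 ovary. Its FPKM in follicular replicate 1 was 5.14, whereas the other 4 follicular phase ovaries lay between 1.62 and 2.59, a gap beyond the 95% critical value of Dixon's test for 5 samples (0.71). The test was applied to 100 groups of gene values and 18 groups of shares, of which about 1 in 20 would be marked by chance, and this was the 1 group that was marked.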

How the results depend on the processing

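Of the 28 called genes, 14 kept their call at an adjusted p under 0.05 under each of up to 20 alternatives of processing or with 1 ovary omitted, which were MCM2, MCM3, MCM4, MCM5, MCM7, MCM10, CDT1, RFC4, RFC5, CCND2, CDK4, CDKN1A, CCNB2 and AURKA, and 12 genes were called under none of them. The share of all called genes that kept their call is not given here, so this count has no background to be read against. Of these 14, MCM3, MCM5, CDT1 and CCNB2 did not reach an adjusted p under 0.01, and MCM3 (0.0699), CDT1 (0.0541) and CCNB2 (0.0553) lost their call without both follicular replicate 1 and luteal replicate 3. The number of genes called lower, 26, was 16 with a common median, 15 on the TPM scale, 11 at an adjusted p under 0.01 (22.0%, against 15.4% of all genes), and, under alternatives chosen after seeing the data, 17 with transcripts in place of genes and 12 without follicular replicate 1 and luteal replicate 3. It ran from 15 (30.0%, against 22.7%, without follicular replicate 1) to 31 (62.0%, against 23.7%, without follicular replicate 3) when 1 ovary was left out. With the most abundant transcript 1 gene was called higher. Of the other cell cycle genes, 31 were called in either direction on the TPM scale (22.0%, against 34.8% of all genes), 33 without both named ovaries (23.4%, against 35.9%) and 21 at an adjusted p under 0.01 (14.9%, against 26.2%), where 4027 genes were called in the whole table.

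The labels do not say whether the replicate numbers pair the ovaries. The correlations of same-numbered ovaries, in deviations from the phase means, were 0.026, 0.199, 0.192, 0.088 and 0.036. Of the 5 luteal phase ovaries, 2 correlated best with their own number, and these values do not settle the question. With the replicate block 32 of the 50 genes were called lower (64.0%, against 29.2% of all genes) and 2 higher, with 7020 calls in the whole table. Among the 50 genes POLA1 lost its call (limma adjusted p = 0.0704) and PCNA (0.00554), CCNB1 (0.0124), TOP2A (0.0167), POLE2 (0.0220), PLK1 (0.0237), CDC6 (0.0251) and AURKB (0.0288) gained one.

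The share of CCND2 differed by -11.5 percentage points with the most abundant transcript and by -18.8 to -16.3 when 1 ovary was left out, and that of CCND3 by 5.41 and by 13.4 to 15.8. In 9 of the 10 fits with 1 ovary left out neither passed the test, with an adjusted exact permutation p of 0.0714. That is what the smallest p of 4 ovaries against 5 gives when 2 of the 9 shares reach it. Without follicular replicate 1 the share of CDKN1B reached it as well, and both passed (adjusted exact permutation p = 0.0476). The share of CDKN1B ran from 6.34 to 9.13. Uncalled shares changed sign for CDK4, at -0.094 with the most abundant transcript, and when 1 ovary was left out for CCNE1 (-1.42 to 2.63), CCNB1 (-0.056 to 3.20) and CDKN1C (-0.509 to 4.51).

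Among log2 fold changes, CCNE1 turned to 0.032 with a common median, 0.039 with quantile normalization and 0.042 on the TPM scale, and CCNE2 to 0.0073 with quantile normalization and 0.0093 on the TPM scale. When 1 ovary was left out, the range was -0.12 to 0.025 for CCNE1, -0.21 to 0.095 for CCNE2 and -0.044 to 0.14 for CCND1. Without both named ovaries the values were 0.14 for RRM2, -0.046 for CCND1, 0.081 for CCNE1, 0.26 for CCNE2, 0.025 for FOXM1 and 0.11 for E2F8. With the most abundant transcript CDK6 was at 0.018 and TPX2 at 1.00. The cause of these changes was not tested.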
